A study of Rattus norvegicus with 9 samples.

Results

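The 38 genes described here encode lysosomal membrane proteins, acid hydrolases and the machinery of autophagy. They were taken by symbol from a list, by a rule that uses no expression values. The list itself was drawn up with earlier results of these data known. All 38 were found among the 17588 genes of the expression table. Messenger RNA was sequenced from primary chondrocytes (cartilage cells) of wild-type rats in 9 libraries of 3 groups with 3 libraries each. In the co-culture group the chondrocytes received interleukin-1β (IL-1β, a cytokine of inflamed joints that drives cartilage loss) and then shared a transwell with dermal fibroblasts, which sat in the upper chamber above them. In the IL-1β group they received the cytokine alone, and in the control group neither cytokine nor fibroblasts. All 3 groups were grown in the same serum-containing medium, per the labels' protocols. How much IL-1β was added, for how long, and how long the cells were co-cultured is not stated in the labels used here, and there was no co-culture without IL-1β among the libraries used. The labels do not say whether the replicates came from different animals or cultures, so p-values here reflect the spread between these libraries alone, which may be technical.

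Lysosomes are acidic compartments in which soluble hydrolases break down proteins, glycans, lipids and glycogen that arrive by endocytosis or by autophagy. In autophagy a membrane grows around cytoplasmic cargo, is decorated with proteins of the ATG8 family, and fuses with the lysosome. Chondrocytes take up and degrade the glycosaminoglycans of their own matrix through this route, and inherited losses of the enzymes involved lead to the mucopolysaccharidoses, in which cartilage and bone are affected.

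Levels are FPKM (fragments scaled by transcript length and sequencing depth), so they can be set against each other between genes. The 9 libraries resembled their own group (Pearson's r of at least 0.994 within a group across the tested genes, which are not independent replicates), and no library stood apart. Their FPKM sums were 809838 to 811665 in co-culture, 796262 to 832248 with IL-1β and 771058 to 782435 in controls, and these sums were left as they were in the main tests. Summed over 10 chondrocyte markers such as type II collagen and aggrecan, the libraries had 619 to 676 FPKM in co-culture, 440 to 460 FPKM with IL-1β and 1907 to 1992 FPKM in controls. All 10 were lower than in controls in both treated groups. Of these, Matn1 averaged 0.747 FPKM in co-culture, 0.613 FPKM with IL-1β and 3.84 FPKM in controls. It reached the 1 FPKM needed for testing in the controls alone, so its fall was favoured by the filter. Summed over 8 skeletal muscle markers, the libraries had 366 to 410 FPKM in co-culture, 378 to 395 FPKM with IL-1β and 169 to 176 FPKM in controls. All 8 were higher than in controls in both treated groups. The 11 macrophage markers summed to 23.8 to 24.6 FPKM in co-culture, 24.1 to 28.0 FPKM with IL-1β and 28.6 to 30.4 FPKM in controls, and the defining genes Ptprc, Csf1r and Cd163 never passed 0.42 FPKM. Of the 6 macrophage markers that could be tested, Cd68 and Cd14 were higher and Laptm5 and Lyz2 lower with IL-1β than in controls. Cd68 and Cd14 were lower in co-culture than with IL-1β. Laptm5 stayed close to the 1 FPKM needed for testing, at 0.81 FPKM with IL-1β and 1.29 FPKM in controls. The 7 osteoclast markers summed to 38.6 to 40.9 FPKM in co-culture, 35.4 to 38.8 FPKM with IL-1β and 45.0 to 47.9 FPKM in controls, and Oscar, Atp6v0d2 and Dcstamp never passed 0.23 FPKM. The 11 dermal fibroblast markers, several of which chondrocytes share, summed to 2193 to 2248 FPKM in co-culture, 2488 to 2510 FPKM with IL-1β and 3412 to 3557 FPKM in controls, while Dpp4, Clec3b and Entpd1 never passed 0.49 FPKM. Col1a1 and Col3a1 made up most of that sum, and other genes of the list moved against it. Of the 6 that could be tested, 4 were higher with IL-1β than in controls (Dcn, Lum, Twist2 and Pdgfra) and 2 lower (Col1a1 and Col3a1), and in co-culture against IL-1β, Dcn and Lum were lower and Col1a1 and Col3a1 higher. Dcn averaged 194 ± 9.49 FPKM in co-culture, 324 ± 10.8 FPKM with IL-1β and 32.45 ± 1.75 FPKM in controls, and Lum averaged 359 ± 36.6 FPKM in co-culture, 764.5 ± 26.1 FPKM with IL-1β and 87.8 ± 3.29 FPKM in controls (SD, n = 3 each). Of 5 adipocyte markers, Fabp4 carried the sum of 34.3 to 50.3 FPKM in co-culture, 158 to 186 FPKM with IL-1β and 16.1 to 23.0 FPKM in controls, while Adipoq, Plin1 and Lep never passed 0.72 FPKM. The 7 endothelial markers never summed to more than 13.9 FPKM. The part of these markers in the results on the 38 genes was not tested, and in bulk RNA fewer cells of a type and less RNA per cell cannot be told apart.

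All 38 genes were detected in every library, and all passed the filter for testing (1 FPKM or more in 3 or more of the 9 libraries). The tetraspanin gene Cd63 stood first with a mean of 1202 FPKM over the 9 libraries, followed by Gabarap at 451 FPKM, Psap at 249.9 FPKM, Lamp1 at 246 FPKM, Sqstm1 at 149 FPKM and Lamp2 at 107 FPKM. At the other end, 8 genes had means under 10 FPKM, with Sgsh lowest at 3.57 FPKM and a lowest single value of 2.82 FPKM. The median of the 38 means was 29.7 FPKM, against 13.3 FPKM for all 11732 tested genes. The plot of levels by library shows that the distances between genes were far wider than those between groups. The median coefficient of variation within a group was 4.49% in co-culture, 3.4% with IL-1β and 3.78% in controls. Arsa was the most variable in co-culture (15.4%), Sgsh with IL-1β (16.0%) and Galns in controls (9.63%), with mean levels of 12.7, 3.57 and 4.93 FPKM.

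**Figure D1:**
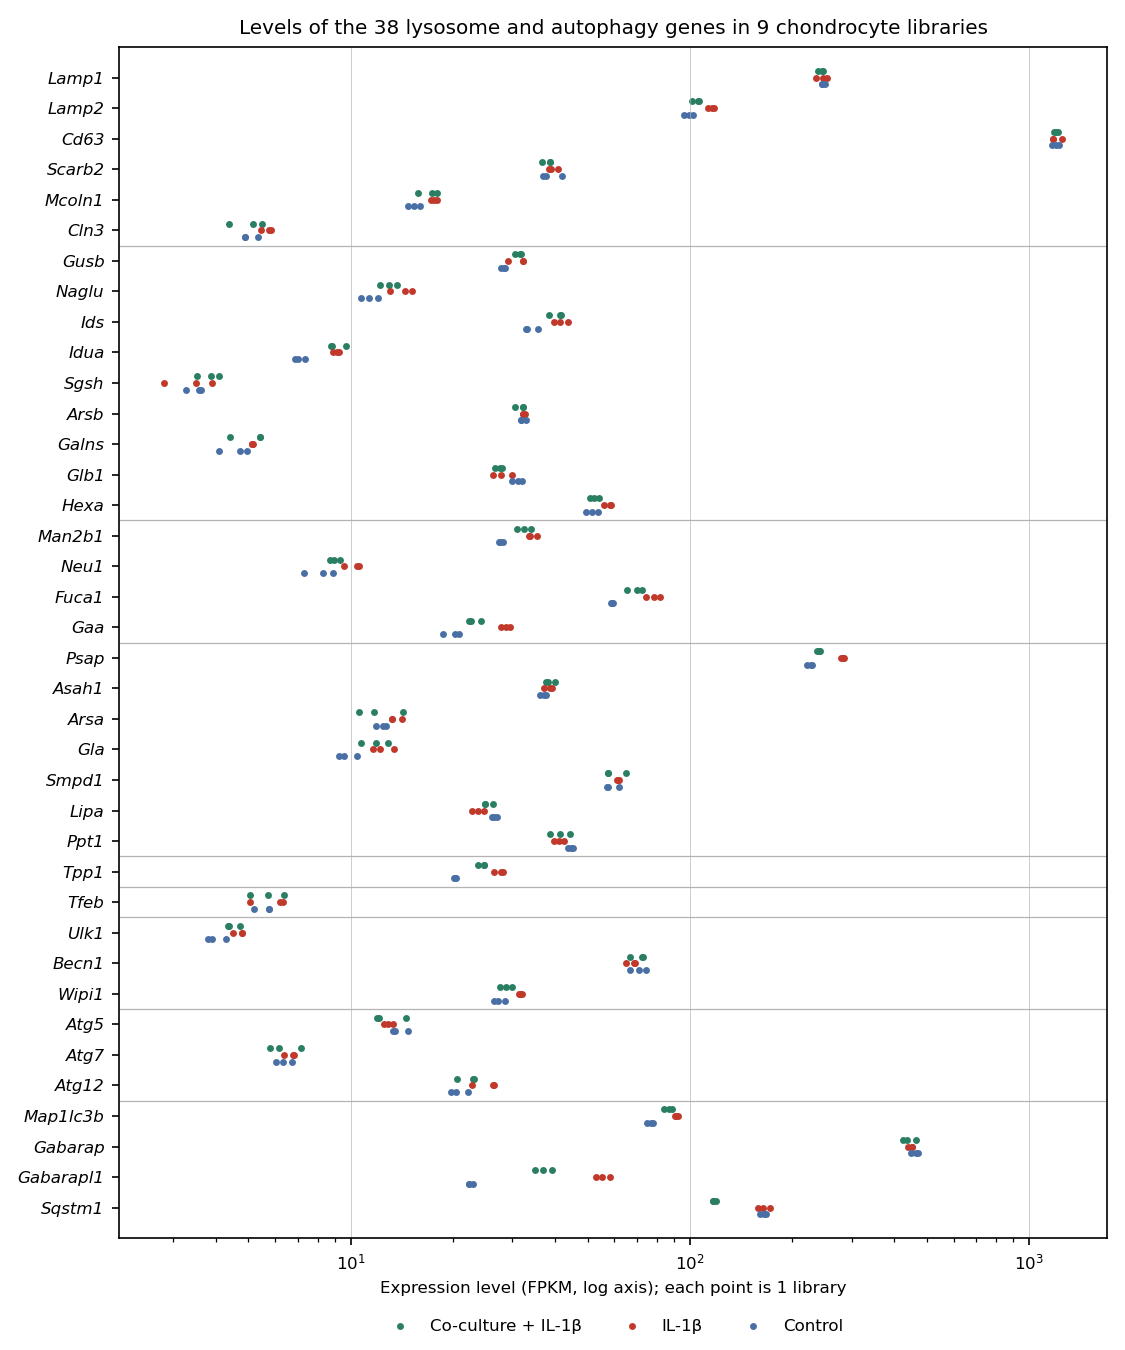
FPKM (log axis) of the 38 lysosome and autophagy genes in each of 9 libraries, 3 per group, ordered by role with lines between roles. Levels run over the range set by Sgsh, near 3 FPKM, and Cd63, near 1200 FPKM, and the groups separate most clearly for Gabarapl1.

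The promoters of the members are shown because many lysosomal genes are known to share a sequence element, bound by TFEB and related transcription factors, whose core is the E-box CACGTG. RefSeq windows of 300 bases (GRCr8 build, 250 bases before to 50 bases after the annotated start) were matched for 31 of the 38 genes. CACGTG, a palindrome that reads alike on both strands, was present in 9 of these 31 windows (29.0%), in 19 of 103 windows of other lysosome and autophagy genes (18.4%), in 9.36% of the 10363 windows of tested genes and in 6.42% of all 33469 windows. The 9 were Atg5, Cd63, Cln3, Gaa, Glb1, Idua, Lamp1, Mcoln1 and Sgsh. The longer palindrome TCACGTGA, which contains CACGTG, was present in 3 of the 31 (Cln3, Lamp1 and Mcoln1, 9.68%), in 8.74% of the windows of other lysosome and autophagy genes, in 1.8% of those of tested genes and in 0.777% of all windows. The form of it that is longer by a G before and a C after was in 0 of the 31, in 5 of 103 windows of other lysosome and autophagy genes (4.85%), in 0.56% of those of tested genes and in 0.233% of all windows. Lamp1 had the most matches to CACGTG, at 183, 167, 150, 65 and 38 bases before the start. In Mcoln1 the TCACGTGA match lay after the start, so that the stretch printed for it holds its other CACGTG alone. The sequences are the 120 bases before the annotated start, 5′ to 3′ on the gene's strand, with CACGTG in capitals. They are given for the 3 genes with TCACGTGA, for Gaa, which rose with IL-1β, for Glb1, which fell, and for Gabarapl1 and Sqstm1, the 2 members with the largest called changes in co-culture against IL-1β, whose windows held no CACGTG. A match is a description of letters only.
Lamp1 (chr16:83075064-83075183, minus strand): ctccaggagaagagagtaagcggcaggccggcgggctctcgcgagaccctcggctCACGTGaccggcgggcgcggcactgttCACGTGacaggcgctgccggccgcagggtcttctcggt
Cln3 (chr1:190597930-190598049, minus strand): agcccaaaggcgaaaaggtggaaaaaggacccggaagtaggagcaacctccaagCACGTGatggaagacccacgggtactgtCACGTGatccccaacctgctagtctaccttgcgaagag
Mcoln1 (chr12:6358138-6358257, plus strand): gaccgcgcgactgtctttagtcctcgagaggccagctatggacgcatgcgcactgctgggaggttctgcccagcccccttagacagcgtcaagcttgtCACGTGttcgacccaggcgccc
Gaa (chr10:105028235-105028354, plus strand): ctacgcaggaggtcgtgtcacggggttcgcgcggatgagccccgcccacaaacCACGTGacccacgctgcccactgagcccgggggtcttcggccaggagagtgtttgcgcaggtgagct
Glb1 (chr8:122963598-122963717, plus strand): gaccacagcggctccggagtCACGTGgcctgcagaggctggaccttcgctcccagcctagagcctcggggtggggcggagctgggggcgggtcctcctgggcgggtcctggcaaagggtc
Gabarapl1 (chr4:164666212-164666331, plus strand): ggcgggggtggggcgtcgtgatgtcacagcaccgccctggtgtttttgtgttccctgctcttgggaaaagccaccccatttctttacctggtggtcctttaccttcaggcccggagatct
Sqstm1 (chr10:35037751-35037870, minus strand): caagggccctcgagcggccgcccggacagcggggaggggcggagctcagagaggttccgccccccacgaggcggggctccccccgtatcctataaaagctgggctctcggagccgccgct

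The first comparison asked how these genes responded to IL-1β. The called changes were nearly all rises with IL-1β, mostly of hydrolase and autophagy genes and small in size except for Gabarapl1, while Glb1 and Lipa fell. By limma, 19 of the 38 genes were higher (50.0%, against 26.5% of all tested genes), 2 were lower (against 20.2%) and 17 did not pass the threshold of an adjusted p under 0.05. Called in either direction were 55.3%, against 46.7% of all tested genes. The median log2 change of the 38 was 0.14, against 0.02 over all tested genes. Of the 21 genes for hydrolases and their activator, 12 rose and 2 fell, and of the 10 autophagy genes 5 rose and none fell (none at an unadjusted p under 0.05). Of the 6 lysosomal membrane genes 2 rose, a share of 33.3% near the 26.5% of all tested genes. The IL-1β libraries lay wholly above the controls for 22 genes (31.3% of all tested genes did so) and wholly below them for 3 (25.0%). The split moved with scaling. It was 15 higher and 5 lower when libraries were rescaled to a common FPKM sum, and 16 higher and 4 lower under quantile normalization. All tested genes moved too, from 3109 higher and 2370 lower to 2249 and 3188 after rescaling and 2291 and 3332 under quantile normalization. Apart from Gabarapl1, no called change of a member reached 0.5 on the log2 scale. In this comparison 8 of 8 skeletal muscle markers were higher and 10 of 10 chondrocyte markers lower, among them Matn1, testable through the controls alone. The tested dermal fibroblast and macrophage markers were split, 4 higher with 2 lower and 2 higher with 2 lower.

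The second comparison set co-cultured cells against cells with IL-1β alone and asked how these genes differed with co-culture in cells given the cytokine. The labels name no group with a transwell but without fibroblasts, so the fibroblasts and the culture format cannot be told apart. No member was higher in co-culture and 9 were lower: Sqstm1, Gabarapl1, Gaa, Psap, Fuca1, Tpp1, Lamp2, Wipi1 and Hexa. By limma that is 23.7% lower, against 10.1% of all tested genes, and 0 of 38 higher, against 11.9% (22.0% of all tested genes were called in either direction); at an unadjusted p under 0.05 the counts were 12 lower and 0 higher. The median log2 change was -0.05, against 0.02 over all tested genes. The co-culture libraries lay wholly below the IL-1β libraries for 11 genes (16.5% of all tested genes) and wholly above for 1, Lipa (21.2%). Under quantile normalization 9 were lower and 1, Cd63, was higher. Of the chondrocyte markers 7 of 10 were higher in co-culture than with IL-1β alone, and the skeletal muscle sums overlapped. The tested dermal fibroblast markers were split 2 higher and 2 lower, and 2 macrophage markers, Cd68 and Cd14, were lower.

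The third comparison, of co-culture with IL-1β against control, asked where the genes stood in cells given IL-1β and then co-cultured. Gabarapl1, Map1lc3b, Psap, Tpp1 and 7 other hydrolase genes were higher than in controls, and Sqstm1 was lower. By limma, 11 of the 38 genes were higher (28.9%, against 21.8% of all tested genes), 2 were lower, Sqstm1 and Glb1 (against 12.2%), and 25 did not pass; those called in either direction were 34.2%, against 33.9% of all tested genes. The median log2 change was 0.07, against 0.04 over all tested genes. Libraries did not overlap for 13 genes that were higher (29.6% of all tested genes) and 2 that were lower (17.0%). The split depended on scaling: 7 higher and 6 lower after rescaling to a common FPKM sum, and 7 higher and 4 lower under quantile normalization. All tested genes went from 2554 higher and 1427 lower to 1541 and 2009, and to 1641 and 2076. Here too 8 of 8 skeletal muscle markers were higher and 10 of 10 chondrocyte markers lower, with Matn1 again testable through the controls alone. The 3 comparisons share libraries and are therefore not independent, and their values for a gene are given side by side. The plot of log2 changes shows the 38 genes in all 3.

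**Figure D2:**
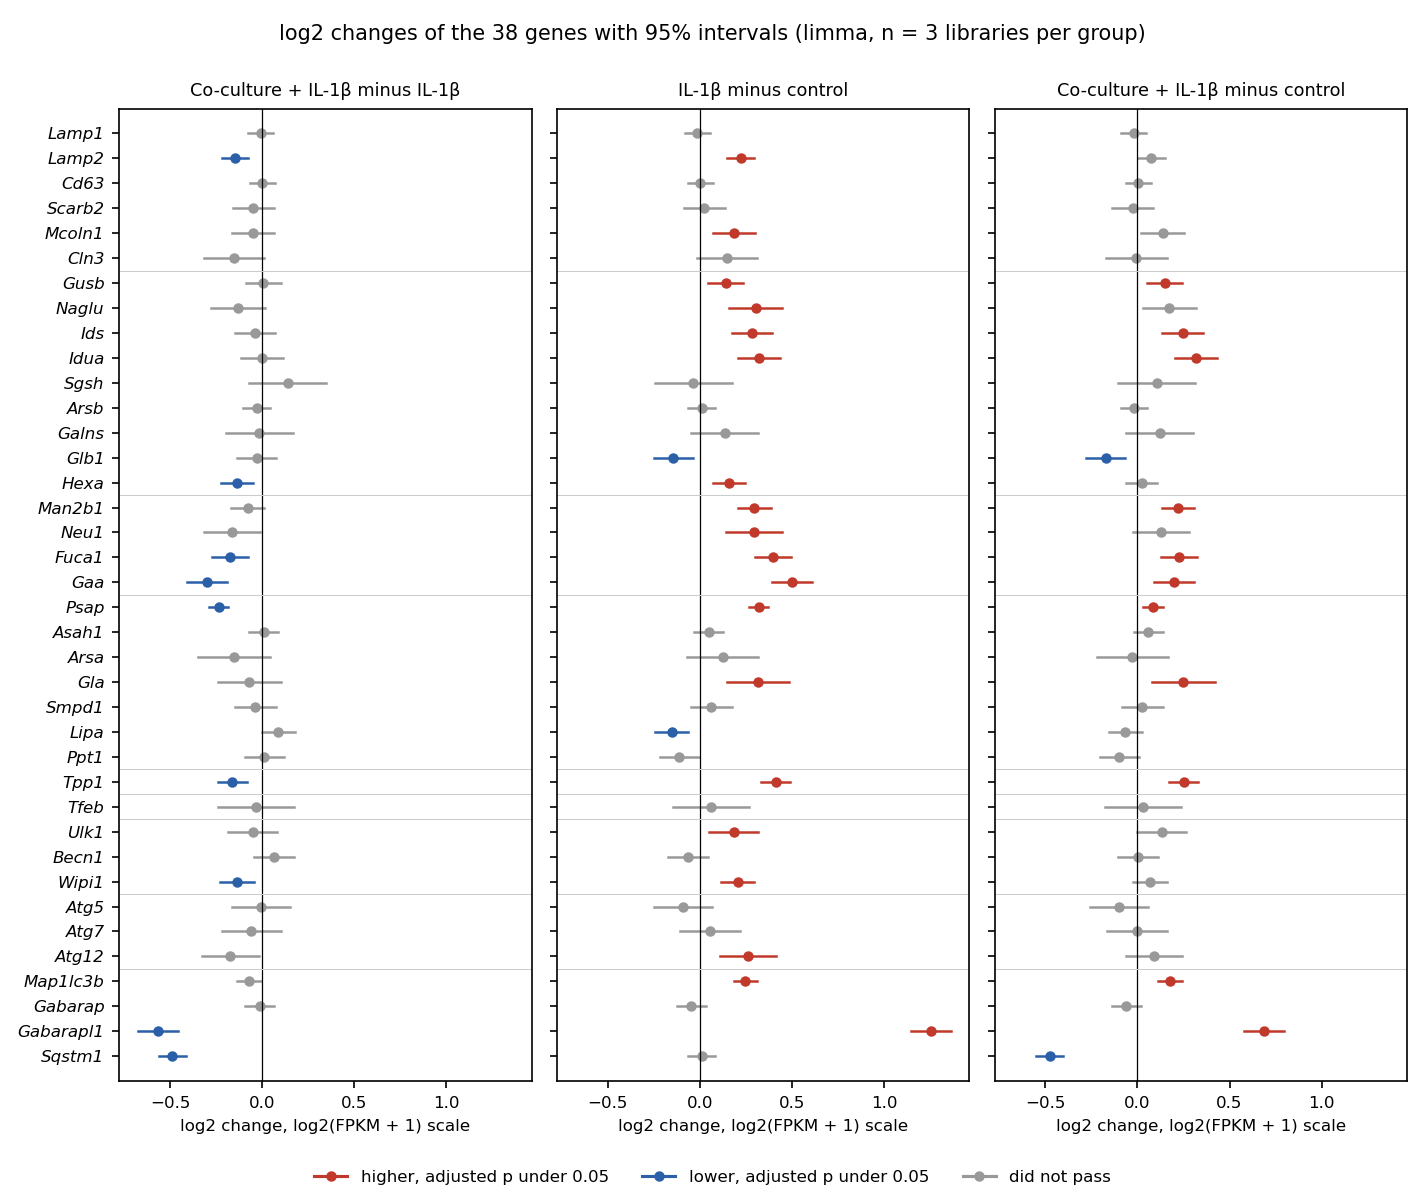
log2 change on the log2(FPKM + 1) scale with its 95% interval for each of the 38 genes, in co-culture with IL-1β minus IL-1β (left), IL-1β minus control (middle) and co-culture with IL-1β minus control (right), n = 3 libraries per group. Red and blue mark genes higher and lower at an adjusted p under 0.05 by limma: 0 and 9 on the left, 19 and 2 in the middle, 11 and 2 on the right.

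Among the 4 members that encode ATG8 proteins and a cargo receptor, Gabarapl1 and Map1lc3b rose with IL-1β, and Gabarapl1 and Sqstm1 were lower in co-culture than with IL-1β. Gabarapl1, an ATG8 protein that is attached to the growing autophagic membrane, had 36.9, 34.9 and 39.4 FPKM in the co-culture libraries, 58.1, 55.0 and 52.9 FPKM in the IL-1β libraries and 22.4, 23.0 and 22.4 FPKM in the control libraries. None of the 3 groups overlapped another: IL-1β was highest, co-culture between, control lowest. Its mean was 2.45-fold higher with IL-1β than in controls (log2 change 1.25 ± 0.05 SE, limma adjusted p = 1.54e-08), and this was the only member to change by at least 1 on the log2 scale. In co-culture its level was 1.49-fold lower than with IL-1β alone (log2 change -0.57, adjusted p = 3.1e-05) and 1.64-fold higher than in controls (0.69, adjusted p = 3.09e-06). Folds here and below are ratios of mean FPKM, while log2 changes are on the log2(FPKM + 1) scale.

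Sqstm1 encodes p62, the receptor that carries ubiquitin-tagged cargo to the autophagic membrane and is itself degraded with it. It had 119, 117 and 117 FPKM in co-culture, 173, 165 and 159 FPKM with IL-1β and 161, 167 and 165 FPKM in controls. The co-culture libraries lay below all 6 others, and the IL-1β and control libraries overlapped. Its level was 1.41-fold lower in co-culture than with IL-1β alone (log2 change -0.49 ± 0.03 SE, limma adjusted p = 6.52e-06) and 1.39-fold lower than in controls (-0.48, adjusted p = 2.84e-06). Between IL-1β and control it did not pass (0.01, 95% interval -0.06 to 0.09, adjusted p = 0.807). Of the 9 members lower in co-culture than with IL-1β, Sqstm1 was the 1 that was also called lower than in controls.

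Map1lc3b, which encodes LC3B, the ATG8 protein most used as a marker of autophagosomes, had 86.9, 84.2 and 88.6 FPKM in co-culture, 90.9, 90.4 and 92.1 FPKM with IL-1β and 77.1, 74.9 and 77.9 FPKM in controls. Both treated groups lay above the controls, by 0.17 in co-culture (limma adjusted p = 0.00119) and by 0.25 with IL-1β (6.33e-05) on the log2 scale. The co-culture libraries lay just below the IL-1β libraries without overlap, and that difference did not pass (-0.07, adjusted p = 0.1002). Gabarap, the most abundant ATG8 gene, had 466, 426 and 438 FPKM in co-culture, 451, 439 and 451 FPKM with IL-1β and 451, 465 and 471 FPKM in controls. Its groups overlapped and no comparison passed, although it was called lower than in controls after rescaling to a common FPKM sum, with IL-1β (log2 change -0.11, adjusted p = 0.0213; over all 18 alternatives 0.0213 to 0.552) and in co-culture (-0.12, adjusted p = 0.02003; 0.015 to 0.546). It was also called lower in co-culture under quantile normalization (-0.13) and without co-culture replicate 1 (-0.10, adjusted p = 0.0327). With Map1lc3a and Gabarapl2, which belong to the same family and are not among the 38, these make 5 ATG8 genes. Gabarapl1 took 4.77%, 4.87% and 5.32% of their summed FPKM in co-culture, 7.23%, 7.05% and 6.67% with IL-1β and 3.2%, 3.27% and 3.15% in controls. Gabarap took 59.2% to 60.3% in co-culture, 56.2% to 56.8% with IL-1β and 64.5% to 66.1% in controls. Neither gene's share overlapped between any pair of groups, as the plot of shares shows.

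**Figure D3:**
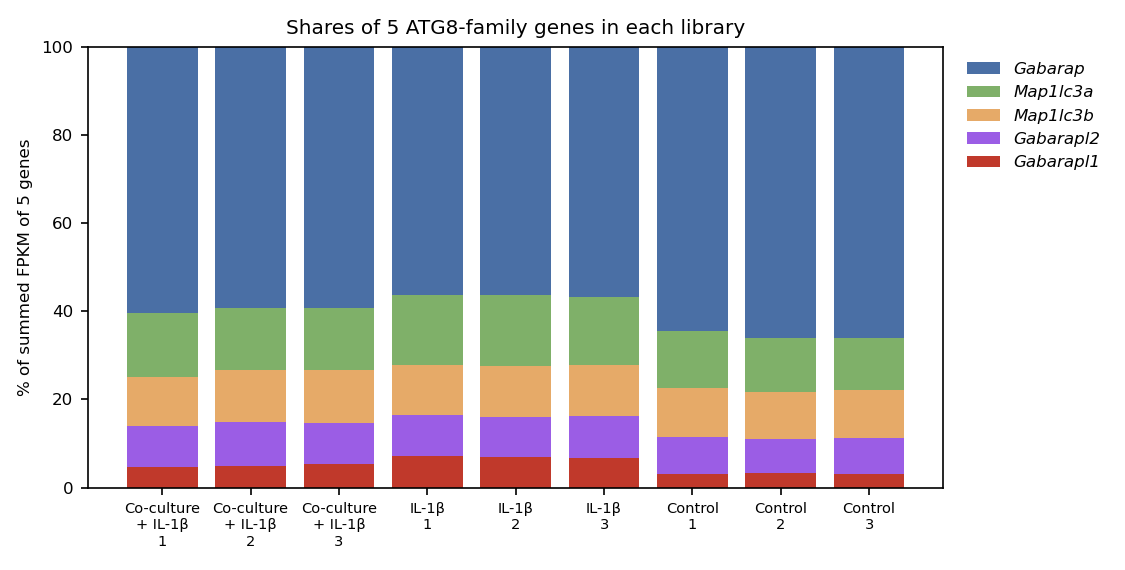
Shares (%) of 5 ATG8-family genes in their summed FPKM, 1 bar per library, with co-culture with IL-1β at the left, IL-1β in the middle and control at the right. Gabarapl1 (bottom) takes 4.77% to 5.32% in co-culture, 6.67% to 7.23% with IL-1β and 3.15% to 3.27% in controls, and Gabarap (top) takes more than 50% in every library.

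The called changes of the genes that start and extend the autophagic membrane were small. With IL-1β, 2 of 3 initiation genes (66.7%) and 1 of 3 conjugation genes (33.3%) rose, against 26.5% of all tested genes. Wipi1, a phosphoinositide-binding protein recruited early to the forming membrane, averaged 28.8 ± 1.24 FPKM in co-culture, 31.7 ± 0.421 FPKM with IL-1β and 27.4 ± 1.05 FPKM in controls (SD, n = 3 each). It rose with IL-1β against control (log2 change 0.21, limma adjusted p = 0.00223) and was lower in co-culture than with IL-1β (-0.14, adjusted p = 0.0379). That second call was lost in 11 of 18 alternatives, with log2 changes of -0.17 to -0.11 and adjusted p of 0.0212 to 0.118 over all 18. Among them were the fits that left out co-culture replicate 2 or 3, any 1 of the 3 IL-1β libraries, or control replicate 1. Ulk1, the kinase that initiates autophagy, averaged 4.48 ± 0.197 FPKM in co-culture, 4.68 ± 0.15 FPKM with IL-1β and 4.01 ± 0.259 FPKM in controls, and was called higher with IL-1β (0.18, adjusted p = 0.0279). Its mean was too low for 1 alternative, and the call was lost in 7 of the other 17 (adjusted p up to 0.196), among them those without IL-1β replicate 2 or 3 (log2 change 0.17 in each) and without control replicate 2 (0.17) or 3 (0.16). Becn1, a subunit of the lipid kinase complex that marks the membrane, had overlapping groups near 70 FPKM and did not pass in any comparison. Of the conjugation genes, Atg12, a ubiquitin-like protein that is joined to Atg5, had 20.6, 23.0 and 23.2 FPKM in co-culture, 26.5, 22.9 and 26.3 FPKM with IL-1β and 19.8, 22.2 and 20.5 FPKM in controls. It rose with IL-1β against control (0.26, adjusted p = 0.0107), and was called lower in co-culture than with IL-1β only without IL-1β replicate 2 (-0.24, adjusted p = 0.0342, against 0.106 with all libraries and up to 0.272 over the alternatives). Atg5 and Atg7, the enzyme that activates Atg12 and the ATG8 proteins, did not pass in any comparison. For Atg7 the 95% interval of the log2 change ran over -0.10 to 0.22 with IL-1β against control, and over -0.22 to 0.10 in co-culture against IL-1β. Without co-culture replicate 1, Atg5 was called lower in co-culture than in controls (-0.18, adjusted p = 0.0286; 0.0286 to 0.634 over the alternatives).

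Tfeb, the transcription factor that controls many lysosomal genes, did not pass in any comparison. It had 6.36, 5.7 and 5.05 FPKM in co-culture, 5.06, 6.19 and 6.32 FPKM with IL-1β and 5.74, 5.18 and 5.74 FPKM in controls, and all groups overlapped. The 95% interval of its log2 change was -0.14 to 0.27 with IL-1β against control and -0.24 to 0.17 in co-culture against IL-1β, so changes as small as most of those seen among the other members were not detectable for it at this spread. TFEB protein is known to be regulated mainly by phosphorylation and nuclear entry, which these libraries do not measure.

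The hydrolases that remove sugars from glycoproteins, together with the glycogen-degrading enzyme, gave 4 rises among 4 with IL-1β, against 26.5% of all tested genes called higher. Gaa, acid α-glucosidase, which breaks down glycogen in the lysosome, had 24.3, 22.6 and 22.4 FPKM in co-culture, 27.8, 28.6 and 29.5 FPKM with IL-1β and 20.3, 18.8 and 20.9 FPKM in controls, and no groups overlapped. It was 1.43-fold higher with IL-1β than in controls (log2 change 0.50 ± 0.05 SE, limma adjusted p = 1.78e-05), and 1.24-fold lower in co-culture than with IL-1β (-0.30, adjusted p = 0.00192). Its difference between co-culture and control (0.20, adjusted p = 0.0105) was not called after rescaling to a common FPKM sum or under quantile normalization (adjusted p up to 0.0874). Fuca1, the α-fucosidase, had 72.5, 65.3 and 70.1 FPKM in co-culture, 81.8, 74.6 and 78.4 FPKM with IL-1β and 59.2, 59.5 and 58.4 FPKM in controls. Again co-culture lay between the other groups without overlap. Its log2 change was 0.40 with IL-1β against control (adjusted p = 4.22e-05), -0.17 in co-culture against IL-1β (0.0191) and 0.23 in co-culture against control (0.00313). The drop in co-culture was not called without IL-1β replicate 1 (-0.14), IL-1β replicate 3 (-0.17) or co-culture replicate 2 (-0.13), with adjusted p over the alternatives of 0.0116 to 0.0686. Man2b1, the α-mannosidase, rose by 0.30 with IL-1β (adjusted p = 0.000165) and was 0.22 higher in co-culture than in controls (0.00205), while Neu1, the sialidase, rose by 0.29 with IL-1β (0.00538). Neither passed between co-culture and IL-1β, where Neu1 nonetheless did not overlap (9.34, 8.94 and 8.71 FPKM in co-culture, against 10.4, 9.57 and 10.6 FPKM with IL-1β).

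Tpp1, a peptidase that trims tripeptides off protein fragments in the lysosome, followed the same order. It had 24.7, 24.7 and 23.8 FPKM in co-culture, 28.1, 27.7 and 26.4 FPKM with IL-1β and 20.5, 20.2 and 20.3 FPKM in controls, with no overlap. Its level was 1.35-fold higher with IL-1β than in controls (log2 change 0.41, limma adjusted p = 6.18e-06), 1.12-fold lower in co-culture than with IL-1β (-0.16, adjusted p = 0.00882) and 1.2-fold higher in co-culture than in controls (0.25, adjusted p = 0.00041). All 3 calls held under every alternative.

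Of the 7 genes for lipid breakdown, 2 rose and 1 fell with IL-1β. Those shares were 28.6% and 14.3%, near the 26.5% and 20.2% of all tested genes. Psap, the precursor of the saposins that present sphingolipids to their hydrolases, had 243, 237 and 240.4 FPKM in co-culture, 285, 284 and 280.0 FPKM with IL-1β and 222, 228 and 229.8 FPKM in controls. The IL-1β libraries stood well above the other 6. Its level was 1.25-fold higher with IL-1β than in controls (log2 change 0.32 ± 0.02 SE, limma adjusted p = 2.35e-06) and 1.18-fold lower in co-culture than with IL-1β (-0.24, adjusted p = 9.71e-05). The small difference between co-culture and control (0.08, adjusted p = 0.0221) was 0.02 after rescaling to a common FPKM sum or under quantile normalization, and was not called in 8 of 18 alternatives (adjusted p up to 0.631). Those included the fits without control replicate 1 (0.07) or co-culture replicate 1 or 3 (0.08 in each). Gla, α-galactosidase A, which cleaves globotriaosylceramide, averaged 11.8 ± 1.1 FPKM in co-culture, 12.4 ± 0.941 FPKM with IL-1β and 9.77 ± 0.623 FPKM in controls. It rose with IL-1β (0.32, adjusted p = 0.00632), and its difference between co-culture and control (0.25, adjusted p = 0.029) was lost in 8 of 18 alternatives, with adjusted p up to 0.102. Those included the fits without control replicate 1 (0.24) or 3 (0.22) and without co-culture replicate 1 (0.24) or 3 (0.19).

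Lipa, the acid lipase that frees cholesterol and fatty acids from stored esters, went the other way. It had 24.9, 24.9 and 26.3 FPKM in co-culture, 23.8, 22.8 and 24.8 FPKM with IL-1β and 26.4, 27.1 and 26.2 FPKM in controls. It was 1.12-fold lower with IL-1β than in controls (log2 change -0.15, limma adjusted p = 0.0104), without overlap, and this held under every alternative. The co-culture libraries lay just above the IL-1β libraries, and that difference did not pass (0.09, adjusted p = 0.151). Against controls the co-culture libraries were called lower only after rescaling to a common FPKM sum (-0.13, adjusted p = 0.0398). Ppt1, which removes fatty acids from proteins, averaged 41.6 ± 2.79 FPKM in co-culture, 41.2 ± 1.5 FPKM with IL-1β and 44.5 ± 0.835 FPKM in controls. It did not pass between IL-1β and control (-0.11, adjusted p = 0.0856; 0.0131 to 0.238 over the alternatives), but was called lower in 6 of 18 alternatives, among them those without co-culture replicate 2 or 3, where its change was the same -0.11. Without co-culture replicate 2 it was also called lower in co-culture than in controls (-0.15, adjusted p = 0.0362). Asah1 (acid ceramidase), Smpd1 (acid sphingomyelinase) and Arsa (arylsulfatase A, which acts on sulfatide) did not pass in any comparison. Their largest change in size was that of Arsa in co-culture against IL-1β (-0.15, 95% interval -0.35 to 0.04), which was called without co-culture replicate 3 (-0.26, adjusted p = 0.0156; up to 0.628 over the alternatives).

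**Figure D4:**
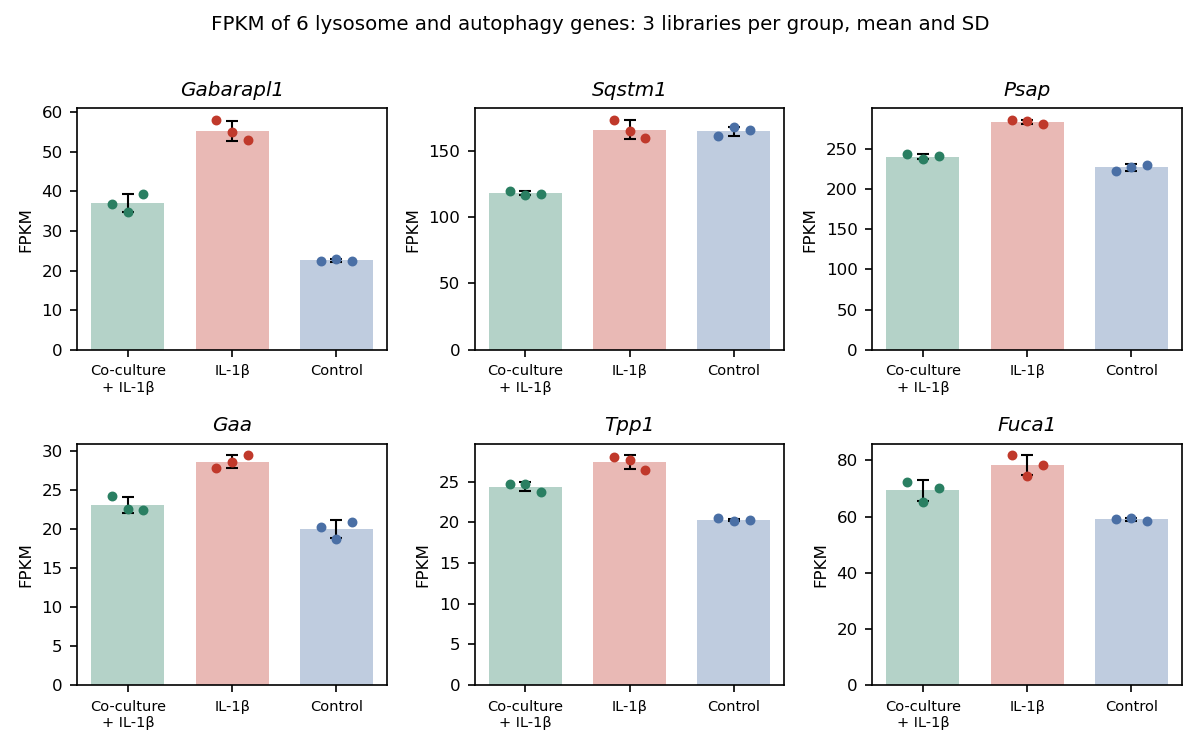
FPKM of 6 members in co-culture with IL-1β, IL-1β and control; bars are means, error bars SD and points the 3 libraries of a group. In Gabarapl1, Gaa, Tpp1, Fuca1 and Psap the co-culture mean lies between the others, whereas Sqstm1 averages 118 FPKM in co-culture, 166 FPKM with IL-1β and 164 FPKM in controls.

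The 9 genes that degrade glycosaminoglycans, the sugar chains of cartilage proteoglycans, gave 5 rises and 1 fall with IL-1β. Those shares were 55.6% and 11.1%, against 26.5% and 20.2% of all tested genes. Ids and Idua act in turn on the iduronic acid of dermatan and heparan sulfate. Idua had 8.75, 9.67 and 8.8 FPKM in co-culture, 9.11, 8.88 and 9.26 FPKM with IL-1β and 6.99, 6.85 and 7.36 FPKM in controls, and Ids had 38.4, 41.6 and 41.3 FPKM in co-culture, 39.8, 43.7 and 41.4 FPKM with IL-1β and 35.8, 33.0 and 33.2 FPKM in controls. For both, each treated group lay above the controls and overlapped the other. Idua was 1.28-fold higher than in controls in co-culture (log2 change 0.32, limma adjusted p = 0.000969) and 1.29-fold higher with IL-1β (0.32, adjusted p = 0.000549). Ids was 1.19-fold higher in co-culture (0.24, adjusted p = 0.00363) and 1.23-fold higher with IL-1β (0.29, adjusted p = 0.000897). Between co-culture and IL-1β their 95% intervals were -0.12 to 0.11 for Idua and -0.15 to 0.07 for Ids.

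Naglu, which trims heparan sulfate, rose by 0.30 on the log2 scale with IL-1β (12.9 ± 0.745 FPKM in co-culture, 14.3 ± 1.07 FPKM with IL-1β and 11.4 ± 0.665 FPKM in controls; limma adjusted p = 0.00364). In co-culture against control it did not pass (0.17, adjusted p = 0.067), except without IL-1β replicate 1 (adjusted p = 0.0458; up to 0.2597 over the alternatives). Hexa, the α-subunit of β-hexosaminidase, averaged 52.3 ± 1.67 FPKM in co-culture, 57.6 ± 1.47 FPKM with IL-1β and 51.5 ± 2.02 FPKM in controls. It rose with IL-1β (0.16, adjusted p = 0.00678, though 0.0598 after rescaling to a common FPKM sum) and was lower in co-culture than with IL-1β (-0.14, adjusted p = 0.0302). That second call was lost in 6 of 18 alternatives (adjusted p up to 0.0964), among them those without IL-1β replicate 1 (-0.12) or 3 (-0.13) or without co-culture replicate 2 (-0.14) or 3 (-0.11). Gusb, β-glucuronidase, was higher than in controls in co-culture (0.15, adjusted p = 0.0239) and with IL-1β (0.14, adjusted p = 0.0208). Both calls were lost under each of the 3 rescalings of the libraries, and the adjusted p reached 0.189 and 0.185. The co-culture call was also lost without co-culture replicate 2 (0.14) or 3 (0.14) or control replicate 2 (0.14) or 3 (0.15), and the IL-1β call without IL-1β replicate 1 (0.12) or 2 (0.12) or control replicate 2 (0.13).

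Glb1, the β-galactosidase that acts on keratan sulfate and gangliosides and whose activity is used as a stain for senescent cells, was the enzyme of this group that fell. It had 27.9, 27.5 and 26.6 FPKM in co-culture, 29.88, 27.7 and 26.3 FPKM with IL-1β and 29.89, 31.1 and 31.9 FPKM in controls. Both treated groups lay below the controls, the IL-1β group only narrowly. Its level was 1.13-fold lower in co-culture (log2 change -0.17, limma adjusted p = 0.0192) and 1.11-fold lower with IL-1β (-0.14, adjusted p = 0.0322). The co-culture call was lost without co-culture replicate 3 (-0.15) or control replicate 2 (-0.17) or 3 (-0.15), with adjusted p up to 0.0693. The IL-1β call was lost in 6 of 18 alternatives, with adjusted p up to 0.116, among them those without IL-1β replicate 2 (-0.14) or 3 (-0.10) or control replicate 2 (-0.14) or 3 (-0.12). Arsb, Galns and Sgsh, which act on dermatan and chondroitin sulfate, on keratan sulfate and on heparan sulfate, did not pass in any comparison. Of these Arsb was the most precise, with a 95% interval of -0.06 to 0.08 for IL-1β against control and -0.10 to 0.04 for co-culture against IL-1β. Summed over the 9 genes, the libraries had 213 to 215 FPKM in co-culture, 221 to 223 FPKM with IL-1β and 202 to 204 FPKM in controls. The groups differed little, and these sums were not rescaled. The FPKM sums over all genes were lowest in controls too (771058 to 782435, against 809838 to 811665 in co-culture and 796262 to 832248 with IL-1β).

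Of the 6 lysosomal membrane genes, 2 rose with IL-1β (Lamp2 and Mcoln1, 33.3%, against 26.5% of all tested genes). In co-culture 1 was lower than with IL-1β (Lamp2, 16.7%, against 10.1%). Lamp1, an abundant glycoprotein of the lysosomal membrane, had 247, 239 and 245 FPKM in co-culture, 254, 235 and 247 FPKM with IL-1β and 246, 251 and 246 FPKM in controls. Its groups overlapped throughout, and the 95% interval of its log2 change was -0.08 to 0.06 both for IL-1β against control and for co-culture against IL-1β. Rescaling to a common FPKM sum made it lower than in controls with IL-1β (-0.08, adjusted p = 0.0272; up to 0.942 over the alternatives), and that rescaling and quantile normalization did so in co-culture (-0.09 with each). Lamp2, its relative that also serves chaperone-mediated autophagy, behaved otherwise, with 101, 106 and 106 FPKM in co-culture, 116, 113 and 118 FPKM with IL-1β and 102, 96.0 and 99.5 FPKM in controls. The IL-1β libraries lay above all others, and the co-culture and control libraries overlapped. Lamp2 was 1.17-fold higher with IL-1β than in controls (log2 change 0.22, limma adjusted p = 0.000299) and 1.11-fold lower in co-culture than with IL-1β (-0.15, adjusted p = 0.00954), and both calls held under every alternative.

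Mcoln1, the calcium channel TRPML1, had 18.0, 15.8 and 17.4 FPKM in co-culture, 17.3, 18.0 and 17.7 FPKM with IL-1β and 14.8, 16.1 and 15.4 FPKM in controls. It was called higher with IL-1β than in controls (log2 change 0.19, limma adjusted p = 0.0142; 0.006 to 0.0926 over the alternatives), and the call was lost without control replicate 1 (0.16) and under 2 of the 3 rescalings. Without co-culture replicate 2 it was called higher in co-culture than in controls too (0.19, adjusted p = 0.0161, against 0.0669 with all libraries; up to 0.336). Cd63, a tetraspanin of late endosomes and exosomes, averaged 1204 ± 15.2 FPKM in co-culture, 1203 ± 43.5 FPKM with IL-1β and 1200.0 ± 26.0 FPKM in controls, with overlap throughout. Its direction depended on the scaling, being lower with IL-1β than in controls under quantile normalization (-0.11, adjusted p = 0.00239; up to 0.974 over the alternatives) and higher in co-culture than with IL-1β (0.10, adjusted p = 0.00747; up to 1.0). Scarb2, which carries glucocerebrosidase to the lysosome, and Cln3, a transmembrane protein mutated in juvenile neuronal ceroid lipofuscinosis, did not pass in any comparison. Scarb2 averaged 38.1 ± 1.24 FPKM in co-culture, 39.5 ± 1.3 FPKM with IL-1β and 38.9 ± 2.66 FPKM in controls. Cln3 had 5.16, 5.49 and 4.39 FPKM in co-culture, 5.83, 5.45 and 5.73 FPKM with IL-1β and 4.88, 5.33 and 4.87 FPKM in controls, and its IL-1β and control libraries did not overlap.

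Other genes of the lysosome and autophagy were taken from lists of 126 that leave out the 38 and were also drawn up with earlier results known. Of the 121 that could be tested, 61 were higher with IL-1β than in controls (50.4%, against 26.5% of all tested genes) and 9 lower (7.44%, against 20.2%). In co-culture against IL-1β, 3 were higher (2.48%, against 11.9%) and 29 lower (24.0%, against 10.1%). In co-culture against control, 41 were higher (33.9%, against 21.8%) and 5 lower (4.13%, against 12.2%). Medians of the log2 change were 0.13, -0.06 and 0.08. After rescaling to a common FPKM sum the splits were 43 to 16, 2 to 27 and 23 to 9. Under quantile normalization they were 47 to 18, 3 to 29 and 27 to 9. All tested genes split 2249 to 3188, 1275 to 1089 and 1541 to 2009 after that rescaling. Under quantile normalization all tested genes split 2291 to 3332, 1453 to 1157 and 1641 to 2076. The plot of shares by list sets the share of each list beside that of all tested genes. Subunits of the V-ATPase, the proton pump that acidifies the lysosome, gave 11 rises and 1 fall among 16 with IL-1β (68.8% and 6.25%). Atp6v1d had the smallest p, at 72.0 ± 2.22 FPKM in co-culture, 78.3 ± 0.39 FPKM with IL-1β and 64.6 ± 2.62 FPKM in controls (log2 change 0.28 with IL-1β against control, limma adjusted p = 0.000131). The alternative membrane subunits Atp6v0a1 and Atp6v0a2 went opposite ways. Atp6v0a1 averaged 8.73 ± 0.621 FPKM in co-culture, 10.9 ± 0.372 FPKM with IL-1β and 8.1 ± 0.408 FPKM in controls, while Atp6v0a2 averaged 9.12 ± 0.118 FPKM in co-culture, 7.59 ± 0.166 FPKM with IL-1β and 8.7 ± 0.188 FPKM in controls. For both, the changes with IL-1β and in co-culture against IL-1β passed (Atp6v0a1 0.39 and -0.29, adjusted p = 0.000363 and 0.00573; Atp6v0a2 -0.18 and 0.24, adjusted p = 0.00581 and 0.00286). Atp6ap1, an accessory subunit, rose by 0.27 with IL-1β (0.000162). Atp6v0d1 was lower in co-culture than with IL-1β (-0.15, adjusted p = 0.014), a call that Atp6v0d1 lost without IL-1β replicate 1 (-0.12, adjusted p = 0.0519) or co-culture replicate 2 (-0.13, adjusted p = 0.0546).

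**Figure D5:**
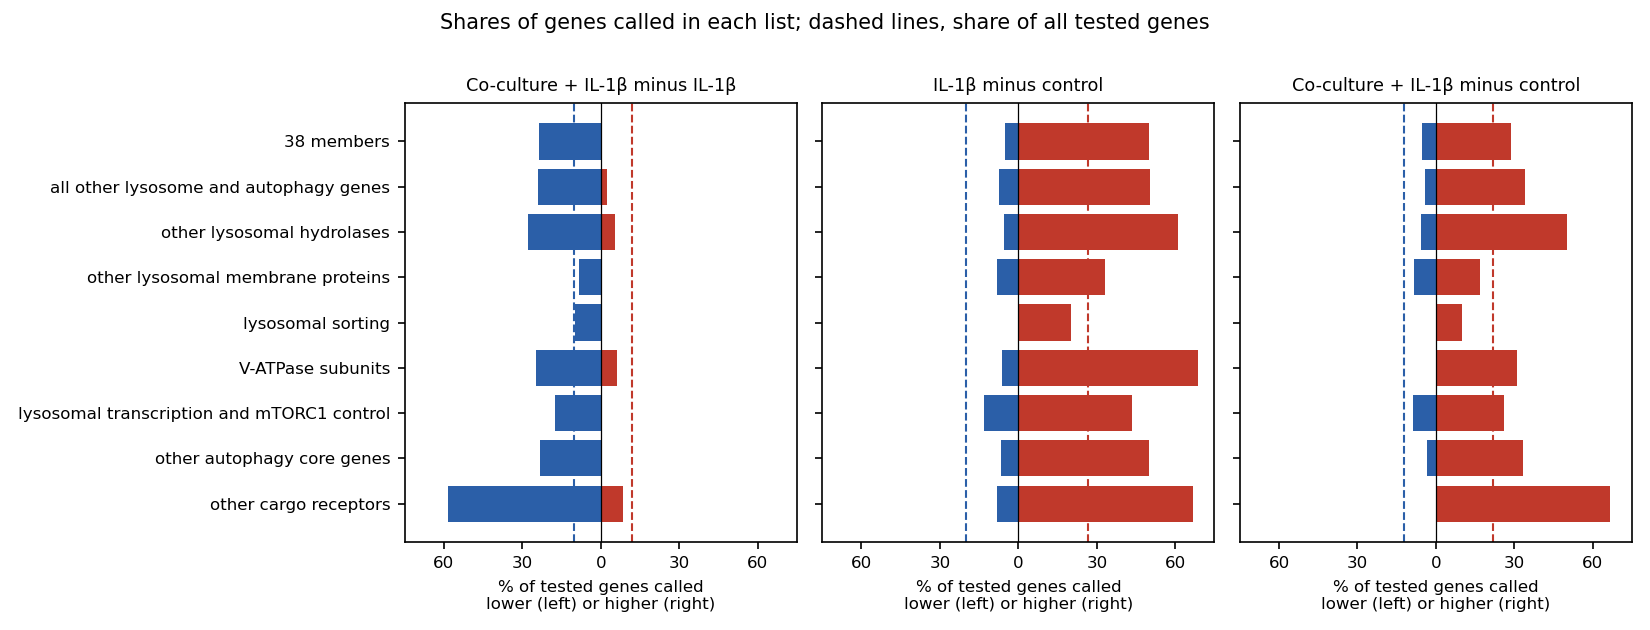
Percentage of tested genes called lower (blue, left) or higher (red, right) by limma for the 38 members and for lists of other lysosome and autophagy genes, in co-culture with IL-1β minus IL-1β (left), IL-1β minus control (middle) and co-culture with IL-1β minus control (right). Dashed lines give the share of all 11732 tested genes (10.1% lower and 11.9% higher on the left, 20.2% and 26.5% in the middle, 12.2% and 21.8% on the right).

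Of 12 cargo receptors and adaptors other than Sqstm1, 8 rose (66.7%, against 26.5% of all tested genes) and 1 fell with IL-1β (8.33%, against 20.2%). In co-culture against IL-1β, 7 were lower (58.3%, against 10.1%) and 1 higher (8.33%, against 11.9%). In co-culture against control 8 were higher (66.7%, against 21.8%). Bnip3, a receptor for the removal of mitochondria that is also induced by hypoxia, had 285, 280.0 and 277 FPKM in co-culture, 344, 340.1 and 341 FPKM with IL-1β and 191, 190.4 and 183 FPKM in controls. Its relative Bnip3l had 85.2, 87.7 and 90.9 FPKM in co-culture, 124, 114 and 118 FPKM with IL-1β and 63.3, 59.6 and 60.6 FPKM in controls. For both genes co-culture lay between the other groups without overlap, 0.28 and 0.43 below IL-1β on the log2 scale (limma adjusted p = 4.12e-05 and 6.21e-05), while IL-1β lay 0.86 and 0.94 above control (2.03e-09 and 3.39e-08). Tp53inp2, which binds ATG8 proteins, averaged 20.5 ± 0.725 FPKM in co-culture, 28.2 ± 0.999 FPKM with IL-1β and 12.6 ± 0.384 FPKM in controls, and Optn, a ubiquitin-binding receptor, averaged 22.3 ± 1.11 FPKM in co-culture, 26.0 ± 1.19 FPKM with IL-1β and 12.6 ± 0.626 FPKM in controls. Sqstm1 itself did not pass with IL-1β against control.

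Among the other core autophagy genes, 15 of 30 rose and 2 fell with IL-1β (50.0% and 6.67%, against 26.5% and 20.2% of all tested genes). Map1lc3a averaged 106 ± 6.0 FPKM in co-culture, 125 ± 2.72 FPKM with IL-1β and 87.3 ± 3.14 FPKM in controls (log2 change 0.51 with IL-1β against control, limma adjusted p = 5.95e-06), and Wipi2, a relative of Wipi1, averaged 28.3 ± 0.843 FPKM in co-culture, 31.7 ± 1.05 FPKM with IL-1β and 22.8 ± 0.466 FPKM in controls (0.46, adjusted p = 4.52e-06). Gabarapl2 rose by 0.37 (adjusted p = 2.05e-05), and Atg9a, a membrane scramblase, was lower in co-culture than with IL-1β (-0.18, adjusted p = 0.00623).

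Of the genes that control lysosomal transcription and mTORC1, the kinase complex that restrains autophagy, 10 of 23 rose and 3 fell with IL-1β. Those shares were 43.5% and 13.0%, against 26.5% and 20.2% of all tested genes. Ddit4, an inhibitor of mTORC1, had 33.5, 32.1 and 33.5 FPKM in co-culture, 61.2, 60.02 and 57.5 FPKM with IL-1β and 20.3, 21.5 and 21.8 FPKM in controls. It was 2.81-fold higher with IL-1β than in controls (log2 change 1.45, adjusted p = 1.03e-09) and 1.8-fold lower in co-culture than with IL-1β (-0.83, adjusted p = 7.44e-07). Mitf, a transcription factor of the same family as TFEB, averaged 5.11 ± 0.376 FPKM in co-culture, 6.73 ± 0.176 FPKM with IL-1β and 3.59 ± 0.0462 FPKM in controls (0.75 with IL-1β against control, adjusted p = 2.8e-06; -0.34 in co-culture against IL-1β, adjusted p = 0.00229). Foxo3, a forkhead factor that drives autophagy genes in muscle, rose by 0.57 with IL-1β (4.18e-05), and Lamtor5, which helps to anchor mTORC1 at the lysosome, was lower in co-culture than with IL-1β (-0.12, adjusted p = 0.0325). For Lamtor5 that call was lost in 6 alternatives, without IL-1β replicate 1 (-0.13) or 3 (-0.10) and without co-culture replicate 2 (-0.11) or 3 (-0.12) among them, with adjusted p up to 0.112.

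Among 18 other hydrolases and their helpers 11 rose and 1 fell with IL-1β (61.1% and 5.56%, against 26.5% and 20.2% of all tested genes). Plbd2, a phospholipase B-like protein of the lysosome, averaged 76.4 ± 2.03 FPKM in co-culture, 88.6 ± 1.03 FPKM with IL-1β and 64.1 ± 0.661 FPKM in controls, and Npc2, which hands cholesterol out of the lysosome, averaged 137 ± 3.96 FPKM in co-culture, 156 ± 5.26 FPKM with IL-1β and 118 ± 2.16 FPKM in controls. Manba, the β-mannosidase, averaged 3.21 ± 0.378 FPKM in co-culture, 3.96 ± 0.265 FPKM with IL-1β and 1.4 ± 0.195 FPKM in controls (1.05 with IL-1β against control, adjusted p = 6.62e-06), and Galc, which cleaves galactosylceramide, was 0.52 higher in co-culture than in controls (0.000329). Pla2g15, a lysosomal phospholipase, was the 1 that fell, and was higher in co-culture than with IL-1β (0.20, adjusted p = 0.00481; 10.99 ± 0.187 FPKM in co-culture, 9.46 ± 0.0493 FPKM with IL-1β and 10.5 ± 0.153 FPKM in controls; log2 change -0.14 with IL-1β against control, adjusted p = 0.0133). Cd68, which encodes a lysosomal glycoprotein used as a macrophage marker, rose with IL-1β (2.68 ± 0.17 FPKM in co-culture, 3.66 ± 0.193 FPKM with IL-1β and 2.02 ± 0.117 FPKM in controls; 0.63, adjusted p = 3.28e-05). Of 12 other membrane genes 4 rose and 1 fell with IL-1β (33.3% and 8.33%, against 26.5% and 20.2%). The peptide transporter gene Abcb9 fell (0.897 ± 0.222 FPKM in co-culture, 0.657 ± 0.0231 FPKM with IL-1β and 1.49 ± 0.0945 FPKM in controls, log2 change -0.59, limma adjusted p = 0.000702). Abcb9 averaged under 1 FPKM in both treated groups and passed the filter for testing only through the controls, so its fall lies near the floor. Laptm4a rose by 0.14 (adjusted p = 0.0012). Of 10 sorting genes 2 rose, a share of 20.0% that lies below the 26.5% of all tested genes. Gnptab, whose product adds the mannose 6-phosphate tag that routes hydrolases to the lysosome, rose by 0.45 (limma adjusted p = 3.71e-05). Rab7a rose by 0.12 (adjusted p = 0.00905, though 0.202 after rescaling to a common FPKM sum).

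The called changes among the 38 genes were small. The median size of the called log2 changes was 0.29 for the members with IL-1β against control and 0.31 for all called genes. It was 0.17 against 0.24 in co-culture against IL-1β, and 0.23 against 0.27 in co-culture against control. Calls that held under all 18 alternatives numbered 16 of 21 in the first comparison, 6 of 9 in the second (Gaa, Gabarapl1, Lamp2, Psap, Sqstm1 and Tpp1) and 8 of 13 in the third (Fuca1, Gabarapl1, Ids, Idua, Man2b1, Map1lc3b, Sqstm1 and Tpp1).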

How the data were processed

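The submitters enriched polyadenylated RNA and deposited 1 table of FPKM values for the 9 libraries, per the labels' protocols and the file headers. FPKM were computed by the authors, with 2 decimals and no raw counts, so the depth per library is unknown and no count test or counting interval can be given. No aligner, counter or annotation is named there. GRCm38, which is a build of the mouse genome, is named for these rat libraries in the submitters' processing notes, so no coordinates of the quantification are given, and promoter coordinates are those of RefSeq GRCr8.

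All 9 libraries were fitted together with limma 3.58.1 (R 4.3.3) on log2(FPKM + 1), 1 mean per group with a mean-variance trend, over the 11732 genes that reached 1 FPKM in 3 or more libraries. These log2 values were computed here from the deposited FPKM, and a log2 change understates the change of low genes. P-values were adjusted by the Benjamini-Hochberg method over all tested genes within each comparison, and genes with an adjusted p under 0.05 were called. Intervals are 95% intervals of the fit. The fit was tested on simulated data with normal noise at the fit's own spread. In them far fewer genes changed than were called here, by more than most called members did. That test therefore does not tell how well changes as small as those of most members were found. Figures were drawn with matplotlib 3.10.9.

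The 18 alternatives were a pseudocount of 0.1, no filter, a filter on mean FPKM of at least 5, rescaling to a common FPKM sum, quantile normalization, median-of-ratios scaling, no trend, only the 6 libraries compared, the replicate number as a block, and leaving out each library. The members and all gene lists were chosen with earlier results of these data known. Every member is accounted for. Fuller values are given for up to 4 called members per role with the smallest p and for those that went the other way, and other genes of the pathway are limited to the 3 with the smallest p per list and comparison. Of 126 other listed genes, 123 were in the table and 121 were tested. Groups of 3 libraries were too small for an outlier test.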

Additional observations from a re-analysis of the deposited data

How the results depend on the processing

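With IL-1β against control, 5 members were lower after rescaling to a common FPKM sum and 4 under quantile normalization, against 2 without. In the same fits 16 and 18 other lysosome and autophagy genes were lower, against 9. Of all tested genes 3188 and 3332 were lower, against 2370. Under quantile normalization Cd63 changed sign to -0.11 (limma adjusted p = 0.00239; 0.00239 to 0.974 over its alternatives), and 1 member was higher in co-culture than with IL-1β, against 0. In co-culture against control, 7 and 7 members were higher under these rescalings, against 11, and 6 and 4 were lower, against 2. The other lysosome and autophagy genes gave 23 and 27 higher, against 41, and 9 and 9 lower, against 5. All tested genes gave 1541 and 1641 higher, against 2554, and 2009 and 2076 lower, against 1427. The cause was not tested.

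Leaving out 1 library at a time gave 17 to 19 members higher and 1 to 3 lower with IL-1β against control, 6 to 9 lower in co-culture against IL-1β (6 without IL-1β replicate 1, IL-1β replicate 3 or co-culture replicate 2, whereas the 3 rescalings gave 8 or 9), and 8 to 12 higher and 1 to 4 lower in co-culture against control. For the other lysosome and autophagy genes it gave 19 to 28 lower in co-culture against IL-1β, against 29 with all libraries, with the lowest count without IL-1β replicate 1, and 2 to 6 lower in co-culture against control. All tested genes moved too. With IL-1β against control 2695 to 3126 were higher and 2086 to 2418 lower, against 3109 and 2370 with all libraries. In co-culture against IL-1β 925 to 1161 were lower, against 1188. In co-culture against control 2077 to 2506 were higher and 1158 to 1381 lower, against 2554 and 1427.

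No shared effect of the replicate number was seen. Deviations from group means correlated between -0.091 and 0.085 for same-numbered libraries and between -0.077 and 0.089 for differently numbered ones. Such correlations cannot tell whether libraries were paired, and the labels do not say. With the replicate number as a block, 18 members were higher and 1 lower with IL-1β against control, 0 and 7 in co-culture against IL-1β, and 10 and 2 in co-culture against control. All tested genes gave 2946 and 2255, 1194 and 1072, and 2370 and 1311 in that fit, in the same order. Called members kept their direction in every alternative. The depth behind each value is unknown, and 3 libraries per group limit what can be detected.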
